A study of Mus musculus with 18 samples.

Results

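The expression of 9 transcription factor genes of the ventral forebrain and hypothalamus was followed through dopaminergic differentiation of HPRT-knockdown and control ESD3 cells: Nkx2-1, Dlx1, Dlx2, Dlx5, Rax, Six3, Six6, Lhx2 and Foxd1. These 9 genes, of 30869 gene symbols on the array, were represented by 17 of its 45281 probes, taken as every probe annotated with one of the 9 symbols. The genes were chosen by their measured values in all 6 conditions of these arrays, so their levels and differences are given as a description, without p-values. ESD3 is a mouse embryonic stem (ES) cell line of strain 129s2/SvPas, kept on mouse embryo fibroblast feeder cells with LIF. Control cells carried an integrated viral shRNA against luciferase and knockdown cells one against HPRT, the purine salvage enzyme hypoxanthine phosphoribosyltransferase. Both were taken at the ES stage, the SNM (spherical neural mass) stage of neural precursor aggregates, and the final neuronal stage of a dopaminergic protocol. Total RNA of replicate cultures was pooled for each of the 6 conditions and each pool was read on 3 Illumina MouseWG-6 v2 arrays. Every SD and p-value thus measures how well an array reading of one pool repeats, and holds nothing on how cultures or infected lines vary.

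As background, the ventral part of the forebrain is laid out by Sonic hedgehog signalling, which turns on NKX2-1 in the future hypothalamus and the medial ganglionic eminence. The DLX homeodomain factors then act in the ventral telencephalon and in parts of the hypothalamus, where they promote the differentiation of GABAergic neurons. RAX, SIX3, SIX6 and LHX2 act earlier, in the anterior neural plate, the eye field and the hypothalamic floor, and FOXD1 marks the rostral ventral diencephalon and part of the retina. The protocol used here aims at midbrain dopaminergic neurons, whose precursors lie caudal to this territory and carry the engrailed factors En1 and En2.

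Arrays detected between 18827 and 22202 probes at a detection p-value under 0.05, and arrays of one condition correlated between 0.992 and 0.997. The 3 Hprt1 probes were each lower in knockdown cells, by 94.1% to 95.2% in ES cells, 70.5% to 73.9% in SNM cells and 92.4% to 95.4% in neuronal cells (limma), where 1 of the probes was undetected in knockdown cells. At the labelled neuronal stage markers of other cell types were strong: in control cells all 20 listed skeletal muscle genes were detected, with a summed normalized signal of 126785 to 129385 per array against 606 to 869 in knockdown cells. The 14 listed oligodendrocyte genes summed to 94670 to 100261 in knockdown cells and to 10647 to 10896 in control cells at that stage, while 12 pan-neuronal genes summed to 6024 to 6721 in knockdown and 12016 to 12628 in control cells. In bulk RNA, fewer cells of a type and less RNA per cell cannot be told apart.

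The results below turn mainly on Nkx2-1, Dlx1, Dlx2 and Foxd1, and the 250 bases upstream of their start sites are shown so that the regulatory sequence can be read beside the values. The sequences are those of RefSeq in build GRCm38.p6, written 5′ to 3′ along the gene. Capitals mark matches on either strand to a CCAAT box (CCAAT) or a GC box (GGGCGG).
Nkx2-1 (chr12:56536909-56537158, minus strand): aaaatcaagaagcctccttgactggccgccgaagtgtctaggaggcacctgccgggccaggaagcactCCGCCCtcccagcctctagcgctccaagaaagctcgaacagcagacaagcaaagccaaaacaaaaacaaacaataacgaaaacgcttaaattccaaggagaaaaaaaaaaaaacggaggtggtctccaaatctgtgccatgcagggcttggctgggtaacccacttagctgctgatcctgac
Dlx1 (chr2:71529195-71529444, plus strand): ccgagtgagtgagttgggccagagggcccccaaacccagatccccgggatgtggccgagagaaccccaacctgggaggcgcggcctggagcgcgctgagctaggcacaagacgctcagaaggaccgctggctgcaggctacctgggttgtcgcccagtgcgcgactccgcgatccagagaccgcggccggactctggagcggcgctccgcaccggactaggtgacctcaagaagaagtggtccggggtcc
Dlx2 (chr2:71546755-71547004, minus strand): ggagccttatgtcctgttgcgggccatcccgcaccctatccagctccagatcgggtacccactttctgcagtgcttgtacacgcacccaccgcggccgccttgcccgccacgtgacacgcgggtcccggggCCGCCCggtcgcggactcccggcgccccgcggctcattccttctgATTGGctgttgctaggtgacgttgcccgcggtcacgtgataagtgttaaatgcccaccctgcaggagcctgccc
Foxd1 (chr13:98353995-98354244, plus strand): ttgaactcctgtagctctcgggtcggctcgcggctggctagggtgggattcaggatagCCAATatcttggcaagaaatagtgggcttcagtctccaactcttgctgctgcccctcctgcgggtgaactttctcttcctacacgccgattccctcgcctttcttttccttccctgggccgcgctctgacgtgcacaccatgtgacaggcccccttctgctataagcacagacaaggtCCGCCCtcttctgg
Promoter entries were read for 7 of the 9 members, all but Rax and Dlx5. Of 32851 such windows in the reference, 33.8% held a CCAAT box and 32.7% a GC box. Nkx2-1 had 1 GC box, Dlx2 and Foxd1 had 1 of each, and Dlx1 had neither. A TATA box (TATAAA, in 12.4% of windows), a homeodomain core (TAATTA, 4.84%) and a GLI core (ACCACCC, 3.92%) were searched on both strands too and matched in none of the 4 windows shown, which says only that these letters are absent from these bases. The Dlx1 and Dlx2 windows were rich in CpG, with 22 and 24 CpG dinucleotides against a median of 6 over all windows, whereas Nkx2-1 had 9 and Foxd1 had 12.

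Of the 9 genes, Nkx2-1 had the largest difference between the lines at the SNM stage. The homeodomain factor NKX2-1 is the classic determinant of ventral hypothalamic and medial ganglionic eminence identity, and is also made in lung and thyroid. Its normalized log2 signal was 10.68, 10.73 and 10.73 on the 3 knockdown arrays and 4.67, 4.65 and 4.79 on the 3 control arrays. All knockdown arrays were far above all control arrays, and in control cells the gene was detected on only 1 of 3 arrays. The difference was 6.01 ± 0.06 (SE) on the log2 scale. With each control array set no lower than its dimmest detected signal it was 61.2-fold. On the uncorrected scale the bead signal was 1580 to 1880 in knockdown cells against 70.2 to 77 in control cells.

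Nkx2-1 stayed on at the neuronal stage in knockdown cells, at a lower level. Its log2 signal there was 7.69, 7.67 and 7.7 in knockdown cells and 4.94, 5.03 and 4.82 in control cells, a difference of 2.76 ± 0.06 (SE), or 6.76-fold. Both groups were detected on all arrays and did not overlap. From the SNM to the neuronal stage the knockdown level fell by 3.03 on the log2 scale while the control level changed by 0.22. At the ES stage the gene was detected on no array of either line, with means of 4.44 and 4.43. The order of the 6 conditions was therefore knockdown SNM, knockdown neuronal, control neuronal, control SNM and both ES conditions, and only the 2 ES conditions overlapped in their arrays. No condition detected the other Nkx2-1 probe on its 3 arrays, so these values rest on 1 probe. Without background correction the SNM difference was 4.56 (quantile) or 4.49 (75th percentile scaling), and the neuronal difference was 1.69 or 1.77.

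**Figure D1:**
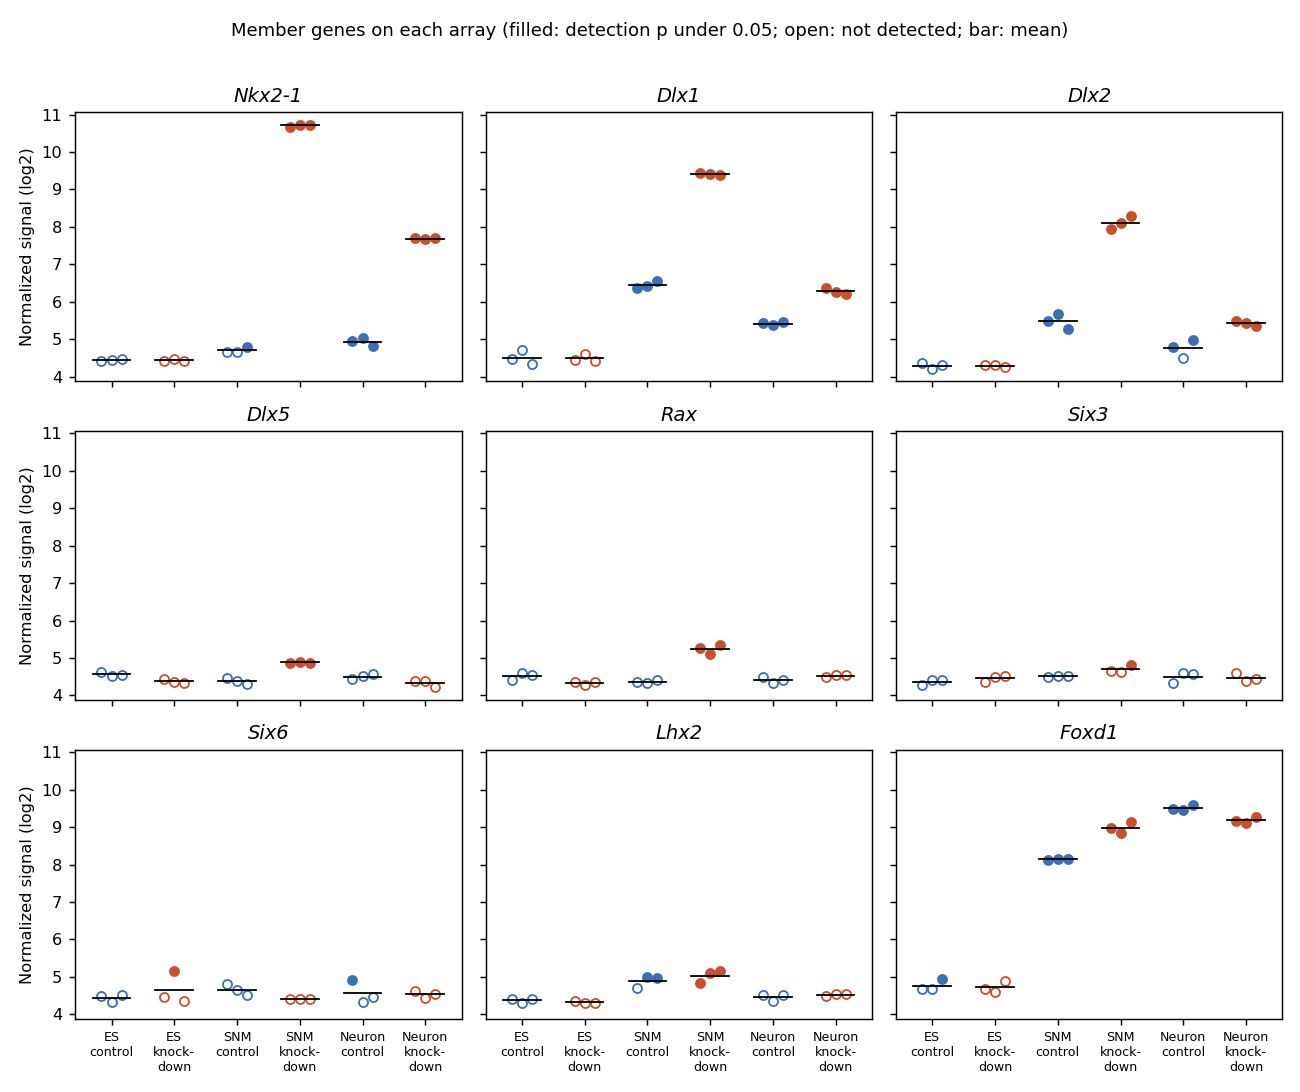
Normalized log2 signal of the 9 genes on each of the 18 arrays, by condition, with control arrays in blue and knockdown arrays in orange. Filled points were detected at p under 0.05, open points were not, and bars are means of 3 arrays. Nkx2-1, Dlx1 and Dlx2 are highest on the 3 knockdown SNM arrays, and Six3 and Six6 stay near background.

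The distal-less genes Dlx1 and Dlx2, neighbours on chromosome 2 that encode closely related homeodomain factors of the GABAergic programme, had a common profile. Dlx1 measured 9.43, 9.42 and 9.38 on the knockdown SNM arrays and 6.36, 6.43 and 6.55 on the control SNM arrays. All were detected, the groups did not overlap, and the difference was 2.96 ± 0.09 (SE), or 7.78-fold. Dlx2 measured 7.95, 8.1 and 8.3 in knockdown cells and 5.49, 5.67 and 5.26 in control cells, again without overlap. Its difference was 2.64 ± 0.12 (SE), or 6.25-fold, and its other probe was detected at this stage in knockdown cells only and gave 0.86 ± 0.11 (SE), at least 1.53-fold.

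Both Dlx genes were also detected on all 3 control SNM arrays, where Nkx2-1 was detected on 1. From the ES to the SNM stage, control cells gained 1.94 for Dlx1 and 1.18 for Dlx2 on the log2 scale, and knockdown cells gained 4.92 and 3.82, from ES levels that were detected on no array. Because the ES arrays give only a bound, these gains were at least 2.99-fold and 1.52-fold in control cells and at least 22.2-fold and 9.09-fold in knockdown cells. Without background correction the control gains were 0.77 to 1 for Dlx1 and 0.36 to 0.65 for Dlx2. Both genes then declined. Between the later stages control cells changed by -1.03 for Dlx1 and -0.72 for Dlx2, and knockdown cells by -3.13 and -2.7.

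A smaller excess was left at the neuronal stage. Dlx1 was 6.38, 6.25 and 6.2 in knockdown cells and 5.42, 5.37 and 5.46 in control cells, 0.86 ± 0.09 (SE) apart. Dlx2 was 5.48, 5.42 and 5.36 against 4.8, 4.49 and 4.98, a difference of 0.66 ± 0.12 (SE), with control cells detected on 2 of 3 arrays. The arrays of neither gene overlapped between the lines. In the order of the conditions, the knockdown neuronal level of each gene overlapped with its control SNM level.

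The genes around this pair did not share its difference. Of those measured, Itga6, an integrin subunit, differed by 0 at the SNM stage, Pdk1, a mitochondrial kinase, by -0.75 (called lower), and Hat1, a histone acetyltransferase, by -0.41. No control SNM array detected the antisense transcript Dlx1as, which stood at 5.68 in knockdown against 4.57 in control SNM cells, a fold change of at least 1.88. The strand read by each probe was not examined here, so sense and antisense signal may be mixed. At the Nkx2-1 locus, the neighbours Mbip and Nkx2-9 differed by 0.4 and -0.17 and Pax9 was not detected. None of the 3 was called.

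The gene pair Dlx5 and Dlx6, which acts later in the same neurons and in the limbs and jaw, was close to background. Dlx5 measured 4.87, 4.9 and 4.88 on the knockdown SNM arrays, where all 3 were detected, and 4.46, 4.38 and 4.3 on the control SNM arrays, where none was. The arrays did not overlap, the difference was 0.5 ± 0.06 (SE), and the fold change was at least 1.09. It was below the 1.5-fold minimum, and the other Dlx5 probe, undetected in both lines, gave -0.1. Its neighbour Dlx6 rose by 0.85 ± 0.08 (SE), with 1 of 3 control arrays detected (limma, adjusted p = 1.76e-07), and was undetected in both lines at the neuronal stage. Dlx3, a family member of the branchial arches and skin, differed by 0.02 at the SNM stage.

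Rax, the retina and anterior neural fold homeobox gene needed for the eye field and the hypothalamic floor, was seen in 1 condition. It measured 5.27, 5.1 and 5.36 on the knockdown SNM arrays and 4.36, 4.32 and 4.42 on the control SNM arrays. Only the knockdown SNM arrays were detected, and the groups did not overlap. The difference was 0.88 ± 0.07 (SE), a fold change of at least 1.4. Of the 3 other Rax probes, 1 was also detected on all 3 knockdown SNM arrays, with a difference of 0.52 ± 0.09 (SE), and the remaining ones were detected in no condition. By the neuronal stage knockdown cells had lost 0.71 of this log2 signal (a change of -0.71), and Rax was no longer detected.

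Foxd1, a forkhead factor of the rostral diencephalon and retina that is also made in kidney stroma, was well above background after the ES stage in both lines. It measured 8.13, 8.14 and 8.14 on the control SNM arrays and 8.99, 8.84 and 9.14 on the knockdown SNM arrays, 0.85 ± 0.09 (SE) apart, or 1.81-fold. At the neuronal stage it was 9.48, 9.47 and 9.58 in control cells and 9.17, 9.11 and 9.27 in knockdown cells, a difference of -0.33 ± 0.09 (SE). The arrays did not overlap at either stage, so the side of the brighter line changed, although the second difference was below 1.5-fold. Control cells gained 3.38 from the ES stage, where 1 of 3 arrays was detected, to the SNM stage and a further 1.37 to the neuronal stage. Knockdown cells gained 4.27 and then 0.19, the latter with overlapping arrays. Without background correction the first gains were 1.96 to 2.14 and 2.72 to 2.92. The control profile of Foxd1, rising to the last stage, was thus unlike those of Dlx1 and Dlx2, which fell.

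Lhx2, a LIM homeodomain factor of the cortex, eye and tanycytes, was just above background at the SNM stage in both lines. It measured 4.7, 5.01 and 4.97 in control cells, detected on 2 arrays, and 4.84, 5.11 and 5.15 in knockdown cells, detected on 3. The groups overlapped and differed by 0.14 ± 0.09 (SE). Six3 and Six6, sine oculis factors of the anterior neural plate and the optic and pituitary primordia, were detected on all 3 arrays of no condition. Six3 was highest on the knockdown SNM arrays, at 4.66, 4.64 and 4.81 against 4.5, 4.51 and 4.51 in control cells, and 1 of these arrays was detected. Six6 measured 4.41, 4.42 and 4.4 in knockdown and 4.81, 4.64 and 4.52 in control SNM cells, all undetected. Six3 and Six6 were thus not well above background, and no fold change is given.

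**Figure D2:**
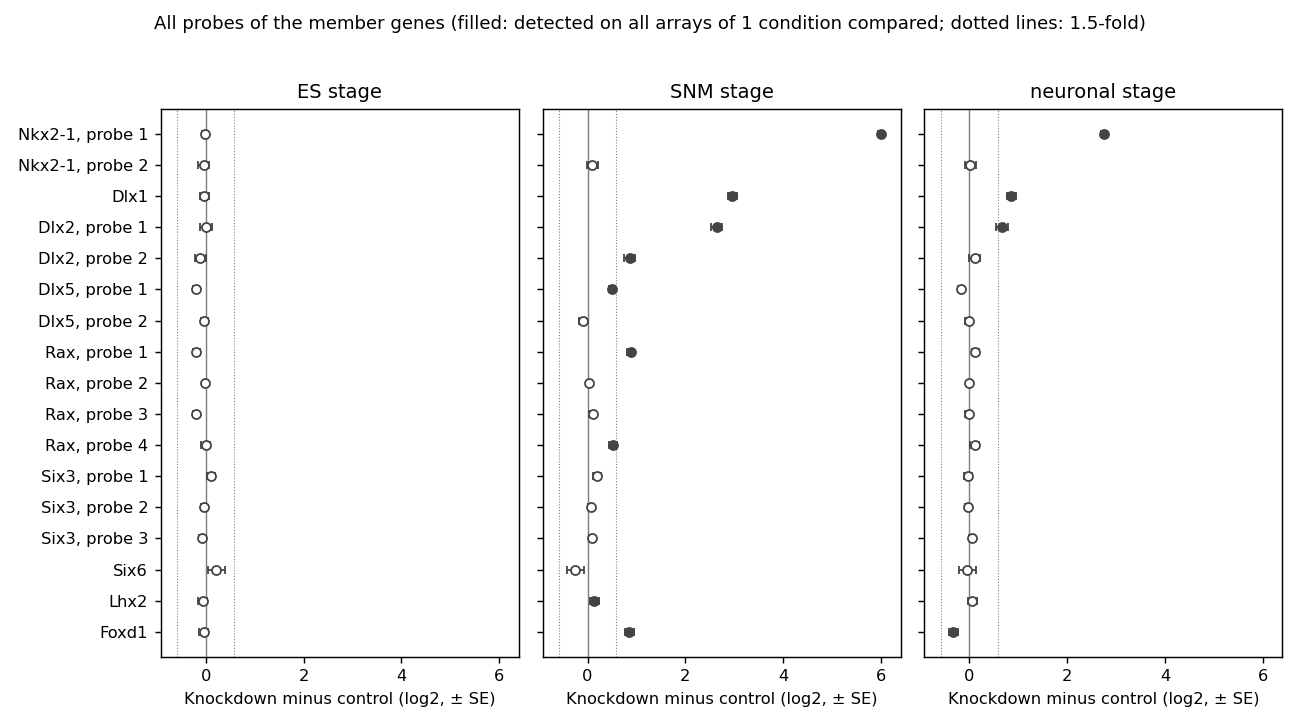
Knockdown minus control log2 difference with its standard error for all 17 probes of the 9 genes at the 3 stages, 3 arrays per condition. Filled points were detected on all 3 arrays of at least 1 compared condition and dotted lines mark 1.5-fold. No probe was detected in this way in ES cells, and in SNM cells Nkx2-1 reaches 6.01 with 1 probe while its other probe stays near 0.

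A probe was tested where all 3 arrays of at least 1 compared condition detected it, and was called at a limma adjusted p under 0.05 and at least 1.5-fold. At the ES stage none of the 9 members could be tested, while 0.516% of 18411 tested probes were called higher and 1.17% lower. At the SNM stage 7 members were tested and 5 were called higher (Nkx2-1, Dlx1, Dlx2, Rax and Foxd1) and 0 lower, where 11% of 20765 probes were higher and 8.9% lower. At the neuronal stage 4 were tested and 3 were called higher (Nkx2-1, Dlx1 and Dlx2), where 13.9% of 20893 probes were higher and 13.5% lower. The median log2 difference over all 9 members was -0.03, 0.85 and 0.06 at the 3 stages, against 0.01, -0.04 and 0.01 over all tested probes. The knockdown-control difference changed between these stages (neuronal minus SNM) by -3.25 for Nkx2-1, -2.1 for Dlx1, -1.98 for Dlx2 and -1.18 for Foxd1, and 6 of 7 testable members were called lower in that comparison. Of 22160 probes 13.7% were called higher and 14.8% lower there. The genes were chosen on these values, so nothing is read from the counts or medians. Under quantile normalization or scaling without background correction, Rax differed by 0.44 and 0.47 and was no longer called at the SNM stage, and Dlx1 and Dlx2 differed by 0.3 to 0.5 and were no longer called at the neuronal stage.

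Other factors of the same territory moved in both directions. Of 35 listed hypothalamic and ventral forebrain factors outside the members, 34 were on the array, 21 were tested at the SNM stage, 8 rose, 5 fell and 8 were not called (limma, adjusted over all tested probes). Without background correction 4 rose. The median of the 21 was 0.31, against -0.04 over all tested probes. Nkx2-4, the closest relative of Nkx2-1 and a factor of the ventral hypothalamus, was undetected in control cells at 4.41 and reached 8.53 in knockdown cells, at least 13.6-fold (adjusted p = 1.03e-14). Its second probe gave 0.81. The zinc finger factors of the rostral forebrain rose as well: Zfp312, the array's name for Fezf2, by 2.47 ± 0.09 (SE, adjusted p = 2.67e-12), and Fezf1 by 1.7 ± 0.09 (SE, adjusted p = 2.64e-10). Tbx3, a T-box factor of the ventral tuberal hypothalamus, rose by 1.34 ± 0.13 (SE), while its other probe gave 0.1.

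Among the 5 that fell was Sp8, a zinc finger factor of the telencephalic patterning centre and of interneurons, which dropped by 2.21 ± 0.15 (SE, adjusted p = 6.64e-09), from 8.19 to 5.98. Vax2, a ventral eye homeobox factor, fell by 1.63 and was detected on 2 of 3 knockdown arrays. Gsx1, a factor of ganglionic eminence progenitors, fell by 1.17, and Lhx1 by 0.62. Of the 34 factors, 12 were detected on all 3 arrays of no condition, among them Otp and Sim1 of the neurosecretory hypothalamus, Nr5a1 of the ventromedial nucleus and Lhx6 of medial ganglionic eminence interneurons.

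The listed factors of the midbrain, isthmus and hindbrain fell or were not called, with 1 exception. Of 28 on the array 19 were tested at the SNM stage, 8 fell, 10 were not called and Hoxd4 rose by 0.84. Their median was -0.48. In neuronal cells 8 of 20 tested were lower and 1 higher, while En2 and En1 differed by -0.3 and 0.13 and were not called. En2, an engrailed factor of the midbrain and isthmus, went from 10.34 to 7.54, a fall of 2.8 ± 0.06 (SE, adjusted p = 1.03e-14), and Gbx2, which sets the isthmic boundary from the hindbrain side, from 10.01 to 7.73, a fall of 2.28 ± 0.06 (SE, adjusted p = 3.34e-14). Irx2 fell by 1.38 and Egr2, of the hindbrain rhombomeres, by 1.41. Otx2, made in both forebrain and midbrain, differed by -0.12 (adjusted p = 0.622). At the SNM stage En1 was 10.06 in control and 9.05 in knockdown cells. Pax2 and Pax5 of the same list were detected on no array. Gbx2 was highest in ES cells, at 11.56 in control and 11.46 in knockdown cells. Lmx1a, a factor of the midbrain floor plate as well, was counted with the dorsal telencephalic factors and not in this list. It was higher in knockdown cells by 2.42 at the SNM stage and by 1.1 at the neuronal stage. On the knockdown SNM arrays, 8 of 21 tested hypothalamic and ventral forebrain factors were thus higher and 5 lower. Lmx1a and Hoxd4 were higher there, En2, Gbx2 and En1 were lower, and Otx2 was not called. No test compared the forebrain and midbrain lists.

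**Figure D3:**
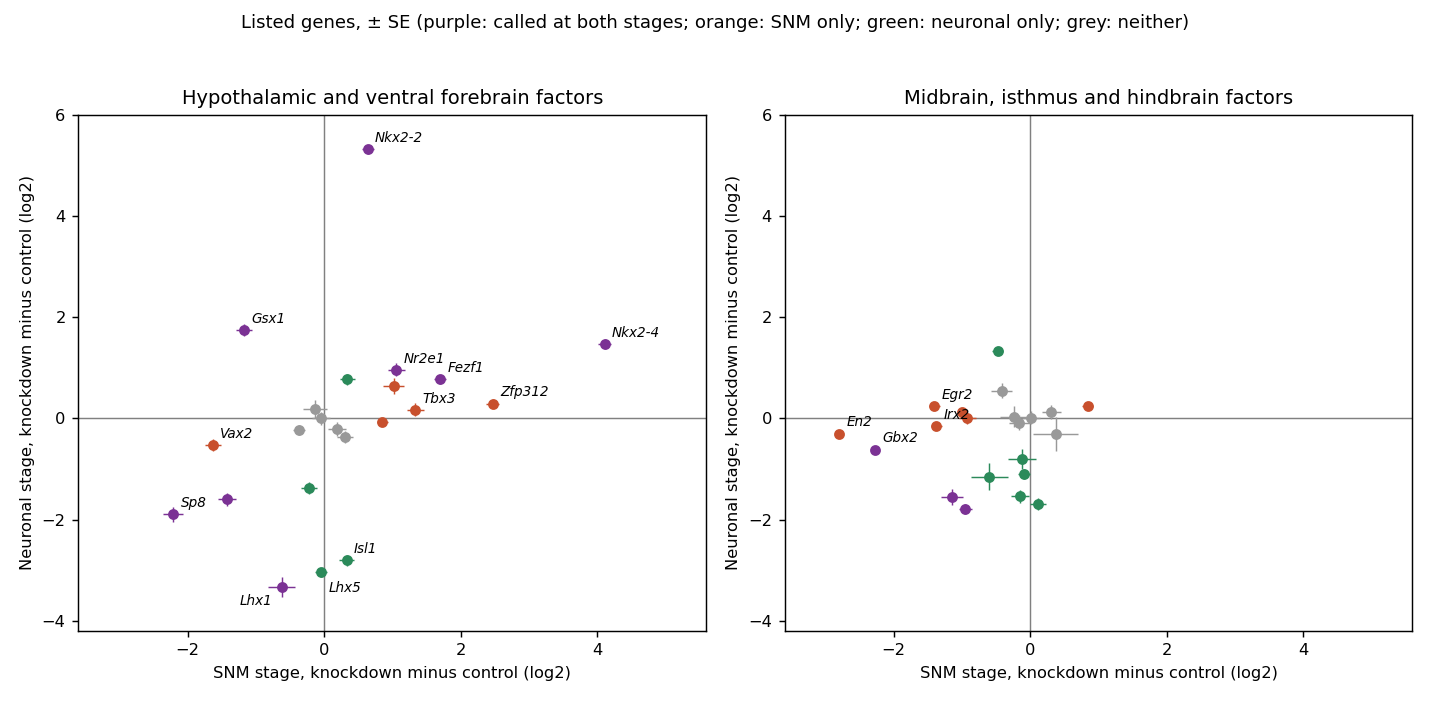
Knockdown minus control log2 difference, with standard errors, at the SNM stage (horizontal) and at the neuronal stage (vertical) for listed genes tested at either stage. The left panel holds hypothalamic and ventral forebrain factors and the right panel midbrain, isthmus and hindbrain factors, coloured by the stage at which a gene was called. Nkx2-4 lies far right at 4.11, Nkx2-2 far up at 5.32, and En2 far left at -2.8.

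At the neuronal stage, 6 of 19 tested hypothalamic and ventral forebrain factors rose, 6 fell and 7 were not called, with a median of 0. Of the 8 that rose at the SNM stage 4 were again higher (Nkx2-2, Nkx2-4, Fezf1 and Nr2e1), and of the 5 that fell 3 were again lower and 1, Gsx1, was higher. Nkx2-4 differed by 1.47 here and by 0.1 on its second probe. Nkx2-2, a factor of the ventral neural tube and of oligodendrocyte differentiation, rose from 6.04 to 11.36, by 5.32 ± 0.09 (SE, adjusted p = 1.13e-16), and its second probe by 3.42. All 13 tested oligodendrocyte genes rose at that stage as well, the myelin gene Mag by 6.57, although 8 of 12 had been lower at the SNM stage, and their part in the Nkx2-2 value was not tested. Lhx1, Lhx5 and Isl1, LIM homeodomain factors of postmitotic diencephalic and spinal neurons, fell by 3.33, 3.04 and 2.81 (adjusted p = 7.68e-10, 1.37e-13 and 1.53e-12). Lhx5 was not detected in knockdown cells, at least 6.04-fold lower. In the same comparison 7 of 10 tested pan-neuronal genes and 19 of 20 skeletal muscle genes were lower, the muscle genes with a median log2 difference of -6.75. The part of these tissues in the falls was not tested.

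In the test of the change between stages, 10 of 22 tested factors of the list had a lower knockdown-control difference at the neuronal than at the SNM stage and 3 a higher one. Nkx2-4 and Zfp312 were among the former, with changes of -2.64 ± 0.13 and -2.18 ± 0.12 (SE, adjusted p = 6.3e-11 and 4.12e-10). Nkx2-2 and Gsx1 were among the latter, with 4.68 ± 0.13 and 2.92 ± 0.18 (SE, adjusted p = 7.12e-14 and 9.72e-10).

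The hedgehog pathway acts upstream of these factors in the embryo, and the protocol adds Sonic hedgehog protein to the cells. Of 9 tested genes 4 rose and 2 fell at the SNM stage. Shh, the ligand, went from 5.65 to 10.8, a rise of 5.15 ± 0.12 (SE, 35.5-fold, adjusted p = 3.23e-14), and stayed 2.61 ± 0.12 (SE) higher at the neuronal stage. Ptch1, the receptor and a direct target, rose by 1.23 ± 0.06 (SE, adjusted p = 1.06e-10) at the SNM stage, and its co-receptor Cdon by 0.86. Gli3, which serves mainly as the repressor of the pathway, fell by 0.78 (adjusted p = 3.93e-05) and Gli2 by 0.62. Their second probes, also detected, gave -0.05 for Gli3 and -0.4 for Gli2. In neuronal cells Shh alone of 10 tested genes was higher, and Gli3, Cdon, Gli2 and Hhip were lower. There Gli3 fell by 2.11 and Gli2 by 1.62, with -0.39 and -0.41 for their second probes.

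Genes of the neurons that such factors specify gave a mixed picture. Of 15 tested GABAergic genes 4 rose and 5 fell at the SNM stage. Gad1, the GABA-synthesizing decarboxylase, rose by 1.98 ± 0.07 (SE, adjusted p = 2.32e-12), with 1.95 for a second probe and -0.07 for each of 2 further ones, of which 1 was detected in no condition. Slc32a1, the vesicular GABA transporter, rose by 0.78 and the calcium-binding protein gene Pvalb by 2.56, whereas the somatostatin gene Sst fell by 2.06 and Calb2 by 1.22. Later, in neuronal cells, 8 of 15 were lower, among them Gad1 (-1.94), Slc32a1 (-3.15), Sst (-4.67) and Pvalb (-1.94). Gad1 and Slc32a1 were thus below control at the stage where Dlx1 and Dlx2 still exceeded it. Skeletal muscle genes moved in the same directions as Pvalb, with 13 of 17 tested higher at the SNM stage and 19 of 20 lower in neuronal cells. The part of muscle in the Pvalb values was not tested.

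Hypothalamic peptide genes showed a similar division at the SNM stage, with 5 of 13 tested higher and 5 lower. Pmch, which encodes melanin-concentrating hormone of the lateral hypothalamus, was undetected in control cells and at least 7.47-fold higher in knockdown cells (4.38 against 7.66, adjusted p = 1.03e-14), with 2.02 for its second probe. Hdc, the histamine-synthesizing enzyme of the tuberomammillary nucleus, rose by 1.93 ± 0.08 (SE, adjusted p = 2.6e-11), and by 0.46 on its other probe. Cart (now Cartpt) and Trh, peptides of the hypothalamus that are not confined to it, fell by 1.56 and by 1.1. In neuronal cells 6 of 11 were lower and 2, Hdc and Pdyn, higher. The second probes of these 2 genes gave -0.08 and 0.01 there. Pmch was at background in both lines by then. Of 9 tested genes of tanycytes, the radial glia of the hypothalamic ventricle, 2 rose at the SNM stage, the widespread radial glial genes Vim and Nes, and 2 fell (Crym and Fgf10, by 1.59 and 0.85).

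Of 13 tested family relatives 5 rose and 1 fell at the SNM stage, and 2 rose and 8 fell at the neuronal stage. Foxd4, a forkhead relative of Foxd1, rose by 2.06 ± 0.08 (SE, adjusted p = 5.52e-12) at the SNM stage. Nkx2-3, a relative of Nkx2-1 known from gut and spleen, rose by 0.78 at the SNM stage and fell by 2.72 at the neuronal stage. Of 10 tested dorsal telencephalic factors 2 rose and 1 fell at the SNM stage. The larger rise was in Lmx1a, a factor of the cortical hem and also of the midbrain floor plate, by 2.42 ± 0.1 (SE, adjusted p = 3.33e-11). Its other probes gave 0.93 and, for the one detected in no condition, 0.63.

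**Figure D4:**
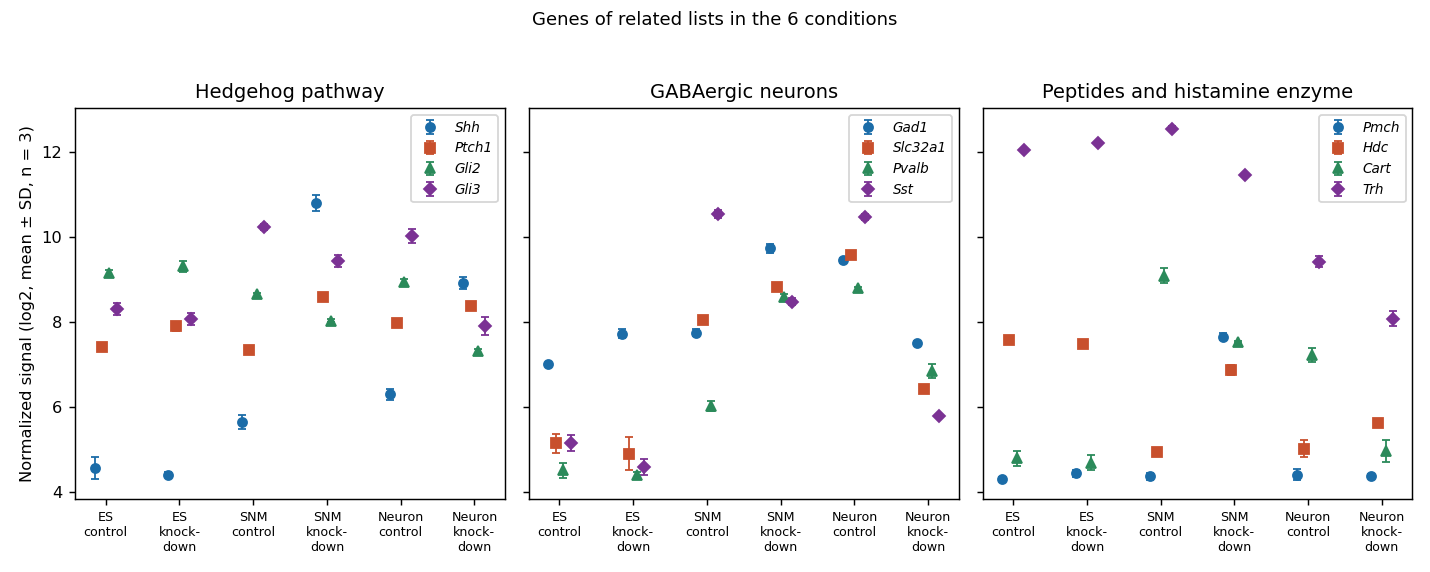
Normalized log2 signal (mean ± SD of 3 arrays) in the 6 conditions for genes of the hedgehog pathway, of GABAergic neurons and of hypothalamic peptide and histamine cells. Shh, Gad1 and Pmch are highest in knockdown SNM cells, at 10.8, 9.73 and 7.66, while Sst and Trh are higher in control than in knockdown cells at the SNM and neuronal stages.

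Members are also made outside the brain, so markers of those tissues were read at the SNM stage. For Nkx2-1, 9 of 14 lung and thyroid genes were detected in no condition on all 3 arrays, including the surfactant genes Sftpa1, Sftpb and Sftpc and the thyroglobulin gene Tg. The list summed to 305 to 316 in knockdown and 220 to 240 in control SNM cells, and its 1 called gene was Tshr, the thyrotropin receptor, higher by 2.47 and at least 4.12-fold. For the factors of the eye field, 12 of 17 eye and retina genes were likewise undetected, Pax6 and Rlbp1 fell by 0.97 and 1.14, and the sum was 143 to 159 in knockdown against 229 to 244 in control cells. For Dlx genes, 4 of 11 tested branchial arch and bone genes rose (Msx1 by 1.48, Sp7 by 1.19) and 1 fell, with sums of 834 to 893 against 621 to 713. For Foxd1, 2 of 5 tested kidney genes rose, Cubn at least 2.45-fold and Tcf21 at least 1.11-fold, neither detected in control cells, and the sums of 744 to 789 and 783 to 827 overlapped. Skeletal muscle genes were higher for 13 of 17 tested at the SNM stage, summing to 6198 to 6628 against 3315 to 3430, and of 12 tested oligodendrocyte genes 8 fell and 0 rose, with a median of -1.03 and sums of 12248 to 13045 against 18415 to 19061. Mag fell by 2.21, and 5 of 14 fibroblast genes rose and 1 fell, summing to 11983 to 12877 against 9690 to 10304. The part of these tissues in the members' values was not tested.

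The genes whose condition means followed each member most closely were taken from 23171 other detected probes by the root-mean-square (RMS) difference of the centred log2 means over the 6 conditions. For Nkx2-1 they were Ptgs1, Shh and Agt, at an RMS of 0.42, 0.57 and 0.64. Agt, the angiotensinogen gene, reached 9.38 in knockdown SNM cells and 7.46 in knockdown neuronal cells. For Dlx1 the nearest was Dlx2 at 0.4, followed by Fezf1 at 0.42 and the forebrain and midbrain factor Otx1 at 0.5. Dlx2 was nearest to Acan, the aggrecan gene, at 0.31. Foxd1 lay closest to Ephb1, an ephrin receptor, at 0.18, and to Ccdc80 and Nsg2. Rax, Lhx2 and Dlx5 barely left background, and so did their nearest probes, those of Nppa, Samd3 and Slc39a8, at 0.04, 0.05 and 0.05. Likeness over 6 condition means is a description of these pools.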

How the data were processed

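Microarray data were analysed for the 18 arrays of control and HPRT-knockdown ESD3 cells, 3 per condition, grouped by their sample labels. Per the file headers and the study's methods, the authors deposited bead signal intensity values from Illumina's software with no background subtraction or normalization, together with detection p-values for each probe and array. A second deposited table supplied the probe annotation; its 72 columns of per-sample values could not be paired with the labels and were not used. Its chromosome column is the only position used for the probes.

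Signals were background-corrected from the detection p-values, given an offset of 16, quantile-normalized and log2-transformed by the neqc function (R 4.3.3, limma 3.58.1). One limma model with 6 conditions was fitted to all 18 arrays (two-sided, Benjamini-Hochberg over the probes tested, detected at p under 0.05 on all 3 arrays of a compared condition). A gene was represented by its brightest probe over all arrays. For a probe that no array of the dimmer condition detected, "at least" marks a bound, taken per array from the higher of the probe's own signal and the dimmest detected one. Called means an adjusted p under 0.05 and at least 1.5-fold. The model fit and the calls were tested on simulated normalized signals with known changes. That simulation covered neither the background correction nor variation between cultures. An exact permutation test of 3 against 3 arrays cannot go below 0.1.

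The members and the 16 gene lists were chosen with earlier results of these data known; the lists hold textbook genes of each region, pathway or tissue. Genes named from lists are mostly the 4 called genes with the largest change at the SNM and at the neuronal stage; others, such as Tbx3, Gsx1, Trh, Otx2 and Slc32a1, were chosen after their values were seen. Some genes counted in the lists are not reported here by name. Alternatives were quantile normalization or 75th percentile scaling without background correction, no detection filter, a 2-fold minimum, the mean over a gene's probes, the array number as a block, only the arrays of a stage, the methods' t-test, and each array number left out. The titles of the samples number the arrays, while the description gives the same replicate number for every sample, so the pairing, the block and the arrays left out rest on the titles alone. In SNM cells same-numbered arrays of the 2 lines varied together (correlations of deviations 0.486, 0.108 and 0.489). They did so in neuronal cells too (0.605, 0.0938 and 0.325), and in ES cells not all did (-0.0938, 0.0254 and 0.0959).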

Additional observations from a re-analysis of the deposited data

Results flagged for a closer look

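The knockdown-control difference changed between the SNM and the neuronal stage, by limma's test of that change, for 13 of the listed hypothalamic and ventral forebrain factors. As neuronal minus SNM on the log2 scale, it became lower for Isl1 (-3.14), Lhx5 (-3), Lhx1 (-2.71), Nkx2-4 (-2.64) and Zfp312 (-2.18). Smaller changes of the same sign were found for Tbx3 (-1.17), Sox14 (-1.16), Fezf1 (-0.93), Dlx6 (-0.92) and Arnt2 (-0.68). It became higher for Nkx2-2 (4.68), Gsx1 (2.92) and Vax2 (1.1). Lhx1, Lhx5 and Isl1 are also made outside the forebrain, and pan-neuronal genes were lower in knockdown cells at the neuronal stage. Their part in these changes was not tested.

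For Foxd1 and Dlx5 every knockdown array lay above every control array at the SNM stage and below at the neuronal stage. The difference changed by -1.18 for Foxd1 and by -0.67 for Dlx5. The neuronal difference of Foxd1 was below 1.5-fold. The share of all probes that changed sides in this way is not given here, so nothing is read from the pair. These genes were chosen on the same values, so their calls in the fit of that change are a description and no p-value is given, and Dlx5 was undetected in both lines at the neuronal stage.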

How the results depend on the processing

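Under the alternatives tried, no call of a named gene reversed its direction. Quantile normalization and 75th percentile scaling, both without background correction, lowered counts, as did a 2-fold minimum. Under the former pair, in that order, probes called in ES cells went from 95 to 12 and 14 (higher) and from 215 to 45 and 42 (lower), and in SNM cells from 2278 to 1379 and 1241 and from 1849 to 947 and 1211. At the neuronal stage quantile normalization gave 1854 probes higher and 1836 lower, where the reported counts are 2908 and 2824, and the scaling gave 1821 lower. Hypothalamic and ventral forebrain factors called higher went from 8 to 4 and 4 at the SNM stage and from 6 to 3 and 3 at the neuronal stage. The members called higher at the neuronal stage went from 3 to 1 and 1. Midbrain, isthmus and hindbrain factors went from 1 to 0 and 0 for both the ES fall and the SNM rise, and those falling at the SNM stage from 8 to 5 under quantile normalization.

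A 2-fold minimum gave 6 higher and 19 lower probes in ES cells, 898 and 369 in SNM cells (70.9% of calls higher against 55.2%), and 1275 and 1361 at the neuronal stage. It left 3 of 5 members at the SNM stage, 1 of 3 members and 3 of 6 hypothalamic factors at the neuronal stage, and 0 midbrain factors for the ES fall and the SNM rise. The methods' t-test with Benjamini-Hochberg adjustment called 19 probes higher and 59 lower at the ES stage. The 1 midbrain factor lower at the ES stage was lost, at 0, with only the arrays of the stage and with the methods' t-test, adjusted or not. Leaving out each array number in turn gave 0 to 2 hypothalamic factors lower at the ES stage (2 without number 1), 0 to 1 midbrain factors lower there (0 without number 1 or 2) and 1 to 2 midbrain factors higher at the neuronal stage (2 without number 3). With the array number as a replicate block, SNM calls were 2288 higher and 1935 lower, and the block changed no count by over 1.5 times. The mean over a gene's probes moved 7 of 15 member differences: Nkx2-1 to 3.06 (SNM) and 1.39 (neuronal), Dlx2 to 1.75 and 0.39, Rax to 0.39 and Dlx5 to 0.2 (SNM), and Dlx5 to -0.11 (ES). The causes were not tested. Signals near background (Rax, Dlx5, Lhx2, Six3, Six6) limit what these arrays show, and each condition is 1 pool of RNA.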
